A study of Mus musculus with 2 samples.

Results

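The cells described here were *Sox2*-positive stem cells (SCs) of the neonatal mouse pituitary that carried transcripts of DNA replication genes and few or none of mitosis genes. The cells were chosen by their own counts: a cell barcode was taken when it had at least 1000 genes and at most 10% of its UMIs (unique molecular identifiers, 1 per captured transcript) from mitochondrial genes. It also needed at least 1 UMI of *Sox2*, none of *Lef1*, under 1000 CPM (counts per 1000000 UMIs) of *Cga*, a sum of at least 5 UMIs over 7 S-phase genes (*Mcm3*, *Mcm5*, *Hells*, *Ung*, *Dtl*, *Lig1* and *Gins2*) and a sum of at most 3 UMIs over 7 G2 and mitosis genes (*Mki67*, *Top2a*, *Cenpf*, *Birc5*, *Ccnb1*, *Cdk1* and *Ube2c*). There were 739 such barcodes, 385 in male and 354 in female barcodes, of 16365 barcodes in all, 13613 that passed the gene and mitochondrial limits, and 10778 of these with *Sox2*.

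The study sequenced single cells of the SOX9iresGFP+ fraction at postnatal day 3 (P3) to follow pituitary SCs and the endocrine cells that arise from them. All mice carried the Sox9iresGFP/+ allele, in which GFP is made from the *Sox9* locus, and GFP+ cells were sorted from 3 pooled male pituitaries for one library and from 3 pooled female pituitaries for the other. GFP protein lasts after *Sox9* is switched off, and a GFP+ cell may already have left the SC state. With 1 library per sex there is no replicate: no test was made, every interval is an exact 95% interval that covers counting error only, and sex, animals, sort and library preparation cannot be told apart. The male library held 10569 barcodes and 106039887 UMIs, the female library 5796 barcodes and 62897759 UMIs, and the S-gene-high cells contributed 5951464 and 4481847 UMIs. The 2 libraries shared 19 barcode sequences, of which 1 was an S-gene-high cell in male and 1 in female barcodes.

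A cell prepares for S phase by loading the MCM helicase onto replication origins, a step called licensing that needs the ORC complex, CDC6 and CDT1. At the G1/S boundary cyclins D and E release E2F transcription factors from the RB family, and E2F switches on the genes for MCM subunits, DNA polymerases and nucleotide synthesis. Core histone transcripts accumulate while DNA is being copied, and the mitotic genes follow in G2. Around birth the SOX2- and SOX9-expressing SCs that line the pituitary cleft still divide, and they give rise to hormone-producing cells through progenitors that lose these factors.

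*Sox2*, the SC transcription factor that the rule required, had a median of 7 UMIs per cell in male and 7.5 in female barcodes, and 2 or more UMIs in 94.5% and 96.0% of the cells, against 80.3% and 90.7% of the *Sox2*-positive barcodes with at most 1 UMI in each sum, the reference of the rule. In barcodes rich in mesenchymal RNA with no *Pitx1*, which should lack the gene, a *Sox2* UMI was found in 6.35% (35 of 551, median depth 8037 UMIs) in male and 1.65% (5 of 303, median depth 7717 UMIs) in female barcodes. *Sox9*, which the rule did not use, was detected in 62.6% and 63.3% of S-gene-high cells and in 24.6% and 29.2% of mesenchymal-rich barcodes. The shallower reference had it in 35.9% and 41.6%, and its part within the *Lef1* and *Cga* limits in 45.0% and 48.0%. Within the same limits, it was in 62.6% and 58.8% of barcodes with at least 5 G2 and mitosis and at most 3 S-phase UMIs. The share was therefore not particular to S-gene-high cells. *Pitx1*, a pituitary lineage factor, was detected in 80.8% and 80.5% of S-gene-high cells and in 78.0% and 78.6% of the reference. RNA of the reporter, *eGFP*, stood at 22.0 CPM in male and 20.5 CPM in female S-gene-high cells.

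Immune, red blood cell, endothelial, pericyte and glial markers were scarce in the S-gene-high cells, while mesenchymal and hormone RNA was present. Over the whole lists, summed levels in male and female S-gene-high cells were 0.168 and 0.446 CPM for 5 immune markers, 0.672 and 0.446 CPM for 5 red blood cell markers, 5.04 and 1.56 CPM for 5 endothelial markers, 7.23 and 11.6 CPM for 4 pericyte markers and 15.3 and 17.4 CPM for 7 pituicyte and glial markers. *Ptprc*, the pan-leukocyte gene, *Kcnj8* of pericytes and *Nkx2-1* of pituicytes had 0 UMIs in both libraries, and the most abundant gene of the pericyte list was *Acta2* (5.21 and 7.81 CPM). Mesenchymal markers summed to 243.5 CPM in male and 40.8 CPM in female cells, led by *Dcn* at 82.3 CPM in male and *Col1a2* at 21.2 CPM in female barcodes. *Dcn* came from few barcodes, as 5 held 93.9% of its UMIs in male S-gene-high cells and the female cells had it in 4 barcodes. The 13 hormone and secretory genes summed to 20304 CPM in male and 2606 CPM in female S-gene-high cells, against 18418 and 5008 CPM in the reference, led by *Pomc* at 16388 and 2170 CPM, which was detected in 320 and 129 cells. Much of it lay in few barcodes, as 5 held 78.6% and 98.3% of *Pomc* UMIs, and 15 male and 4 female S-gene-high barcodes (3.9% and 1.13%) had over 10000 CPM of *Pomc*, *Gh* or *Prl*.

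The label S phase was met in part. The S-gene-high cells were rich in replication genes, but core and linker histone transcripts, which mark DNA synthesis, were not raised in them. The summed level of the histone genes was 1048 CPM in male and 764 CPM in female S-gene-high cells, against 1306 and 1049 CPM in *Sox2*-positive barcodes with at most 1 UMI in each sum. Barcodes of the same gate with at least 5 S-phase and at least 4 G2 and mitosis UMIs, called both-sums-high here (542 and 352 barcodes), reached 11221 and 10269 CPM. *Ccna2*, the cyclin of S phase and G2, stood at 1.01 CPM (95% 0.370 to 2.19) in male and 2.90 CPM (1.54 to 4.96) in female S-gene-high cells, against 146 and 174 CPM in both-sums-high cells. By rule these 2 groups differ in the sum of G2 and mitosis genes. Genes that rise together with that sum are kept low in S-gene-high cells by the choice of cells. The part of this in the histone and *Ccna2* levels was not tested. Histone transcripts have few poly(A) tails, so their capture is partial in all groups, and many of the genes are near-identical copies among which reads may be split, so the sum is given and calls of single genes are uncertain. The cells are therefore named for their rule, S-gene-high.

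**Figure D1:**
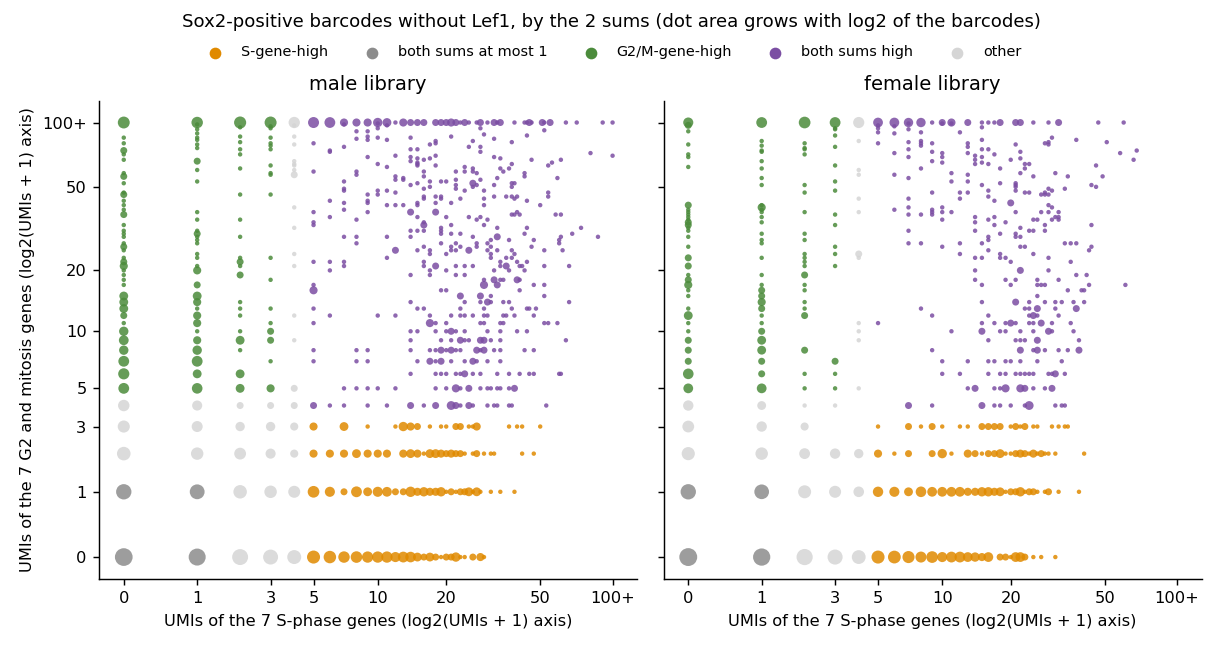
Each dot is a pair of UMI sums in barcodes with *Sox2*, no *Lef1* and under 1000 CPM of *Cga*, with the sum of the 7 S-phase genes on the x axis, the sum of the 7 G2 and mitosis genes on the y axis (both on a log2(UMIs + 1) scale, with values over 100 drawn at 100) and dot area growing with the log2 of the number of barcodes. The S-gene-high cells (orange, 385 male and 354 female) lie below the both-sums-high cells (purple, 542 and 352) and continue into them with no gap at the limit of 3 UMIs.

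The 2 thresholds cut through a continuous range. The S-phase sum of the S-gene-high cells had a median of 11 UMIs in male and 10 in female barcodes and reached 50 and 41. Just inside the lower limit, 57 male and 47 female cells had a sum of exactly 5, and just outside it 88 and 72 barcodes had a sum of 4. At the other limit, 35 male and 29 female cells had 3 UMIs of G2 and mitosis genes, and 27 and 16 barcodes with enough S-phase UMIs had 4.

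S-gene-high cells made up 6.53% of *Sox2*-positive barcodes in the male library (95% 5.91 to 7.19) and 7.26% in the female library (6.54 to 8.02), and the intervals overlapped. The order of the libraries was not fixed. Every barcode was also thinned to 5000 UMIs before the rule was applied, which left out 724 male and 118 female shallower barcodes. This set *Sox2* and *Lef1* positivity and both sums anew, so the cells that met the rule were not all the same. Both-sums-high barcodes were 9.19% and 7.21% of *Sox2*-positive barcodes as deposited and 3.81% and 3.68% with thinning. The S-gene-high shares with thinning were 6.07% (5.38 to 6.82) and 5.01% (4.37 to 5.70). Of the barcodes within the *Sox2*, *Lef1* and *Cga* gate, S-gene-high cells were 9.99% in male and 9.32% in female barcodes as deposited, and 7.59% (6.74 to 8.52) and 5.82% (5.08 to 6.62) with thinning, where the intervals did not overlap. Within the gate the share rose with the UMIs per barcode, from 3.42% and 2.70% under 5000 UMIs to 14.6% and 16.4% at 20000 UMIs and more.

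**Figure D2:**
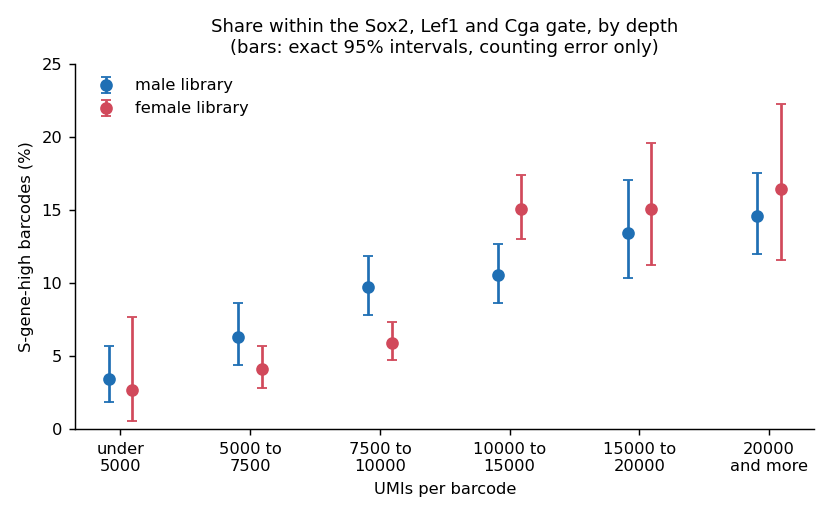
The y axis gives the percentage of gate barcodes that were S-gene-high and the x axis the UMIs per barcode, with 1 point per library and exact 95% intervals as bars. Both libraries climb from about 3% (3.42% male, 2.70% female) in the shallowest to about 15% (14.6% and 16.4%) in the deepest barcodes.

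Depth therefore had to be held in the comparison. S-gene-high cells had a median of 12281 UMIs in male and 11016 in female barcodes, against 9867 and 9063 in the 3061 male and 2905 female *Sox2*-positive barcodes with both sums at most 1, the reference of the rule. A second reference was drawn from those reference barcodes that also passed the *Lef1* and *Cga* gate, 1 for 1 at the same depth; it paired 368 male cells (medians 12018 and 12001.5 UMIs) and 345 female cells (10957 and 10803 UMIs) and left out 17 and 9. A feature was called higher or lower when its ratio was at least 1.5, or at most 1/1.5, against both references in both libraries. Of 8111 features with a mean of at least 10 CPM, 368 were called higher (4.54%) and 117 lower (1.44%). A gene near 0 in the references enters this comparison only if it is high in S-gene-high cells, so the counts below favour higher calls, cover the genes that passed and not whole lists, and give no support of their own. The references were chosen for low sums of replication and mitosis genes, so these calls describe the contrast that the rule set up and are not independent evidence of S phase. Over all 8111 features the median ratio was 1.01 in male and 1.01 in female barcodes against the rule's reference, and 1.06 and 1.01 against the depth-matched one.

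The 7 S-phase genes of the rule were high by construction. *Hells*, a chromatin remodeller, stood at 227 CPM in male and 252 CPM in female S-gene-high cells, *Mcm3*, a helicase subunit, at 139 and 179 CPM, and *Mcm5*, another subunit of the same ring, at 80.7 and 83.2 CPM. *Lig1*, which seals Okazaki fragments, stood at 169 and 236 CPM, *Gins2*, a part of the active helicase, at 80.5 and 90.8 CPM, *Ung*, which removes uracil from DNA, at 79.0 and 75.2 CPM, and *Dtl*, which guides the destruction of CDT1 during S phase, at 59.3 and 80.3 CPM. All are E2F targets in many cell types. E2F-like letters were therefore searched in RefSeq promoter windows (GRCm38.p6, 250 bases before to 50 after each start), as any of TTTCGCGC, TTTGGCGC, TTTCCCGC and TTTGCCGC on either strand. The matched stretches of 4 rule genes and of *Uhrf1*, one of the genes outside the rule with the largest ratios, are shown 5′ to 3′ on the gene's strand, with the matched letters in capitals. *Uhrf1* has the letters in 1 of its 2 windows, and *Fam111a*, ranked first outside the rule, in 0 of 2. They lie at chr1:20820266-20820294 (*Mcm3*, minus strand, in the first exon), chr8:75109336-75109387 (*Mcm5*, plus strand, first match 153 bases before the RefSeq start and outside the annotated gene), chr19:38930919-38930944 (*Hells*, plus strand, first match 62 bases before the RefSeq start and inside an annotated exon), chr1:191575536-191575561 (*Dtl*, minus strand, first match 8 bases before the start) and chr17:56304108-56304155 (*Uhrf1*, plus strand, first match 185 bases before the start and inside the gene but no exon).
Mcm3: gGCGGGAAAacttgggaagtTTTGGCGCc
Mcm5: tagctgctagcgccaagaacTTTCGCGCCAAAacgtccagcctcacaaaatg
Hells: ccaccgggtTTTCCCGCgaaagagaa
Dtl: tgacgtcagTTTGGCGCggagtttgg
Uhrf1: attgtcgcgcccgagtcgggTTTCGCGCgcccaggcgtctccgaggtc
In *Mcm5* a forward and a reverse match overlap, and in *Mcm3* a reverse and a forward match stand apart. Windows with these letters belonged to 704 of 27025 genes (2.605%), to 331 of the 6416 compared features with a window (5.16%), to 48 of 267 features called higher (18.0%) and to 1 of 85 called lower (1.18%). The letters were present for 5 of the 6 rule S-phase genes with a window, for 10 of 22 licensing and helicase genes (45.5%), for 8 of 24 polymerase genes (33.3%) and for 2 of 36 G2 and mitosis genes outside the rule (5.56%). The letters CCAAT, common in mitotic promoters, were found for 49.4% of the features called higher, 47.1% of those called lower and 43.2% of the compared features. A match is a run of letters and not a measured binding site.

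Origin licensing and helicase genes were raised in S-gene-high cells. Of 28 genes on this list 16 were expressed enough to compare, and 12 were called higher and 0 lower, with median ratios of 2.45 in male and 3.49 in female barcodes against the rule's reference and 3.47 and 3.84 at matched depth. The list's summed level was 1267 CPM in male and 1351 CPM in female S-gene-high cells, against 472 and 440 CPM in the reference. *Mcm6*, an MCM ring subunit, stood at 147 CPM (95% 137 to 157) and 182 CPM (170 to 195), against 19.4 and 25.2 CPM in the reference, 7.58- and 7.23-fold higher. *Cdt1*, the loader of the MCM ring, stood at 28.4 and 34.8 CPM, 15.8-fold (11.7 to 21.6) and 13.4-fold (10.1 to 18.0) above the reference. *Gmnn*, which encodes the CDT1 inhibitor geminin, stood at 122 and 123 CPM, 13-fold and 14.5-fold above it. *Mcm2* and *Mcm7* had smaller ratios, 2.74 and 4.27 for *Mcm2* and 2.17 and 3.21 for *Mcm7* in male and female cells. *Cdc6*, the other loader, was too low to compare, with 77 UMIs (12.9 CPM) in male and 61 UMIs (13.6 CPM) in female S-gene-high cells and 8 and 0 UMIs in the reference.

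Genes for copying the strands moved with them. Of 29 polymerase, clamp and Okazaki processing genes 26 could be compared, and 23 were called higher and 0 lower, with median ratios of 3.29 and 3.65 against the rule's reference and 4.13 and 4.21 at matched depth. *Pcna*, the sliding clamp, stood at 79.5 CPM (95% 72.5 to 87.0) in male and 98.8 CPM (89.9 to 108) in female S-gene-high cells, against 18.2 and 20.5 CPM, which is 4.36- and 4.83-fold higher. *Prim1*, the primase subunit that starts each fragment, was 6.41- and 6.64-fold higher and *Pola1*, the catalytic subunit of polymerase alpha, 4.33- and 4.97-fold higher. *Dscc1*, a subunit of a clamp loader that also acts in cohesion, stood at 22.3 CPM (18.7 to 26.5) and 21.2 CPM (17.1 to 25.9), against 0.640 and 0.560 CPM in the reference, 34.9-fold and 37.9-fold higher.

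When the compared features outside the rule were ordered by the least of their 4 ratios, *Fam111a*, a protease gene that acts at replication forks, came first. Like the genes named after it here, it was under 10 CPM in the rule's reference of both libraries and so passed the limit on low levels only through the S-gene-high cells. *Fam111a* stood at 32.4 CPM (95% 28.0 to 37.3) in male and 41.1 CPM (35.3 to 47.4) in female S-gene-high cells, against 0.854 and 0.560 CPM in the reference, 38.0-fold (25.5 to 58.7) and 73.3-fold (44.0 to 131) higher. *Dscc1* and *Uhrf1*, which directs maintenance DNA methylation, followed, with least ratios of 34.9 and 20.2. Next came *Slfn9*, *Pclaf*, which binds the clamp, *Fignl1*, *Cenpk*, *Cdt1*, *Gmnn*, *Chaf1b*, *Chek1*, *Atad2*, *Spc24*, *Chaf1a* and *Cenpm*. Of the 368 features called higher, 90 were on one of the gene lists.

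Chromatin assembly and DNA methylation genes rose in part, with 12 of 21 compared genes called higher and 0 lower (24 on the list). *Chaf1b*, a subunit of the histone chaperone CAF-1, stood at 46.5 CPM in male and 47.7 CPM in female S-gene-high cells, 11.9- and 11.3-fold above the reference, and *Dnmt1*, the maintenance methyltransferase, at 131 and 120 CPM, 2.58- and 3.12-fold above it. *Nasp*, a histone chaperone, stood at 301 and 318 CPM (2.23- and 2.16-fold higher) and *Slbp*, which binds histone mRNA and is needed for its processing, at 148 and 163 CPM (2.03- and 2.34-fold higher). *Nasp* and *Slbp* were called higher in these cells while the summed histone level lay under that of the reference. Of 67 replication-dependent histone genes 15 could be compared, with *Hist1h4a* called higher and *Hist1h2bc*, *Hist3h2a* and *Hist3h2ba* lower, single-gene calls that are uncertain for the reason given above.

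Nucleotide supply rose for 10 of 17 compared genes (22 on the list), with 0 called lower. *Dut*, which removes dUTP, stood at 316 CPM in male and 320 CPM in female S-gene-high cells, against 115 and 92.4 CPM, and *Tyms*, thymidylate synthase, at 79.1 and 88.1 CPM (3.46- and 3.51-fold higher). Of *Rrm1* and *Rrm2*, the subunits of ribonucleotide reductase, *Rrm1* stood at 59.3 and 66.0 CPM and was called higher. *Rrm2* stood at 13.4 and 11.8 CPM in S-gene-high cells, 95.4 and 110 CPM in both-sums-high cells, and was below the level needed for a comparison with the reference.

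DNA repair and checkpoint genes were mostly too low to compare. Of 36 on the list, 13 were compared and 10 called higher with 0 lower. *Chek1*, the replication checkpoint kinase, stood at 46.9 CPM (95% 41.5 to 52.7) in male and 54.7 CPM (48.0 to 62.0) in female S-gene-high cells, against 4.18 and 2.87 CPM, 11.2- and 19.0-fold higher. *Wee1*, a kinase that holds back CDK activity, was 2.73- and 3.49-fold higher.

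Among 34 G1 and S regulators, 21 were compared and 8 were called higher (*Ccnd1*, *Ccnd3*, *Cdk2*, *E2f1*, *E2f3*, *Tfdp1*, *Rbl1* and *Cks1b*) and 0 lower. *Ccnd1*, the D-type cyclin that starts G1 progression, stood at 443 CPM (95% 426 to 460) in male and 491 CPM (471 to 512) in female S-gene-high cells, against 151 and 161 CPM in the reference, which is 2.94- and 3.06-fold higher and 2.67- and 2.52-fold higher at matched depth. *E2f1*, the activating E2F that is itself an E2F target, stood at 31.1 and 35.9 CPM against 4.70 and 3.64 CPM, 6.62- and 9.87-fold higher. The cyclins E, which act at the G1/S boundary, were below the comparison level: *Ccne1* stood at 14.1 and 10.7 CPM against 3.20 and 2.55 CPM, and *Ccne2* at 13.4 and 25.7 CPM against 1.59 and 1.05 CPM.

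Of the inhibitors of the cell cycle, 1 passed the call. Of 17 CDK inhibitor and growth arrest genes 14 were compared, *Gadd45g*, a growth arrest gene, was called lower and 0 were called higher. The count of lower calls depended on the setting: it was 5 against the rule's reference alone, 5 of 12 with barcodes thinned before the rule, 4 with per-cell means or without hormone-rich and mesenchymal-rich barcodes, and 0 at a ratio of 2 or a G2 and mitosis sum of at most 1, where *Gadd45g* was no longer called. Over all features the lower share was 2.63% against the rule's reference alone, 2.27% with thinning and 1.47% with per-cell means. It was 1.18% without hormone-rich and mesenchymal-rich barcodes. The list's median ratios were 0.697 in male and 0.726 in female barcodes against the rule's reference and 0.756 and 0.752 at matched depth. *Gadd45g* stood at 153 and 103 CPM in S-gene-high cells against 502 and 336 CPM in the reference (0.305- and 0.307-fold), and at 0.610- and 0.504-fold at matched depth. *Cdkn1c*, which encodes the CDK inhibitor p57, stood at 354 CPM (95% 339 to 369) and 376 CPM (358 to 394) against 863 and 794 CPM in the reference, ratios of 0.410 and 0.473. *Cdkn1c* was not called because its male ratio at matched depth was 0.700, with 0.525 in the female library.

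**Figure D3:**
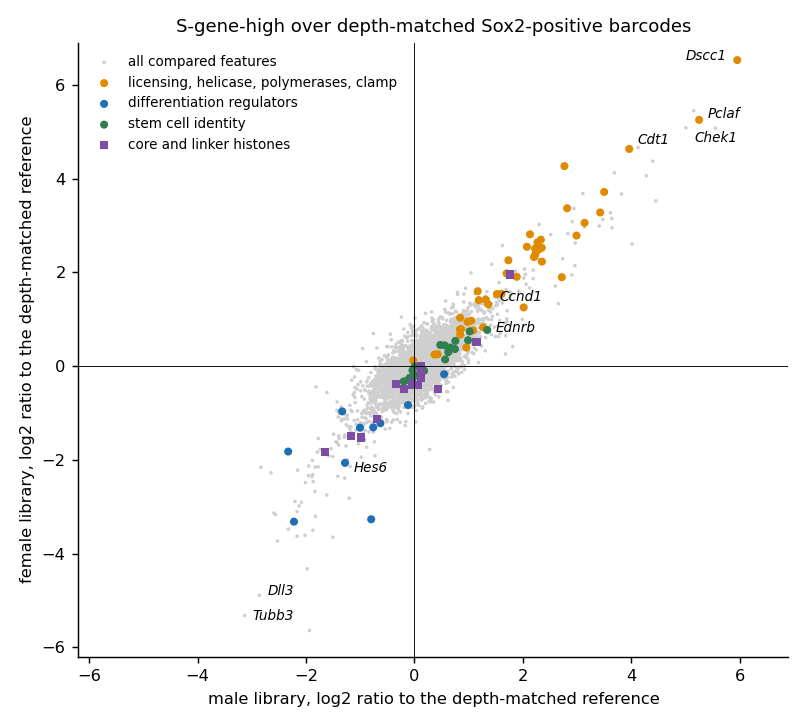
Each point is a compared feature, with its log2 ratio of S-gene-high cells to depth-matched reference barcodes in the male library (x axis) and the female library (y axis); colours mark the licensing and polymerase lists, differentiation regulators, stem cell identity genes and histones. Replication genes lie at the upper right in both libraries, *Tubb3* and *Dll3* at the lower left, and most stem cell identity genes near 0.

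The S-gene-high cells were then compared with other cycling SCs. Cells of the mirrored rule, with at least 5 G2 and mitosis UMIs and at most 3 S-phase UMIs (G2/M-gene-high, 297 male and 199 female), had a like depth, with medians of 11573 and 11079 UMIs. Of 8166 features compared with these, 488 were at least 1.5-fold higher in S-gene-high cells in both libraries (5.98%) and 403 lower (4.94%). In that comparison 15 of 20 licensing genes and 20 of 27 polymerase genes were higher in S-gene-high cells and 1 and 2 lower, while 42 of 43 G2 and mitosis genes outside the rule were lower. Nucleotide supply had 9 of 20 genes higher and 0 lower. Chromatin assembly and repair were mixed, with 9 of 22 and 6 of 22 genes higher and 7 and 4 lower, and 23 of 24 histone genes were lower and 0 higher. Hormone RNA moved too: all 5 compared hormone and secretory genes were higher, with median ratios of 4.14 in male and 15.4 in female barcodes. *Pomc* was 4.33- and 59.8-fold higher in summed UMIs, of which 5 barcodes held 78.6% and 98.3% in male and female S-gene-high cells. In the male library its median per barcode was 124 CPM in S-gene-high and 121 CPM in G2/M-gene-high cells. In the female library the median was 0 CPM in both groups. Hormone-rich barcodes made up 3.03% of male and 0% of female G2/M-gene-high cells. *Dscc1* was 18.4- and 26.9-fold, *E2f1* 14.2- and 30.3-fold, *Cdt1* 13- and 17.6-fold and *Mcm2* 8.33- and 16.3-fold higher in S-gene-high than in G2/M-gene-high cells.

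Along the 4 groups the lists peaked at different places. The licensing sum went from 472 CPM (male) and 440 CPM (female) in the reference to 1267 and 1351 CPM in S-gene-high, 1779 and 1995 CPM in both-sums-high and 643 and 629 CPM in G2/M-gene-high cells. G2 and mitosis genes outside the rule summed to 826 and 815 CPM in S-gene-high cells, 690 and 639.5 CPM in the reference, 5198 and 6843 CPM in both-sums-high cells and 11779 and 12631 CPM in G2/M-gene-high cells. Of these 43 genes, 6 could be compared with the reference and 3 were called higher, *Smc2* and *Smc4*, the core of condensin, and *Cks2*, a CDK cofactor. Most of the list was under the level needed: with no filter on low values 36 could be compared, 19 being called higher and 1 lower (5.57% and 4.28% of all 14535 features then compared). With barcodes thinned before the rule 8 of 11 were called higher (5.88% of all 7870). The limit of 3 G2 and mitosis UMIs then applied to thinned counts, which lets in other cells.

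**Figure D4:**
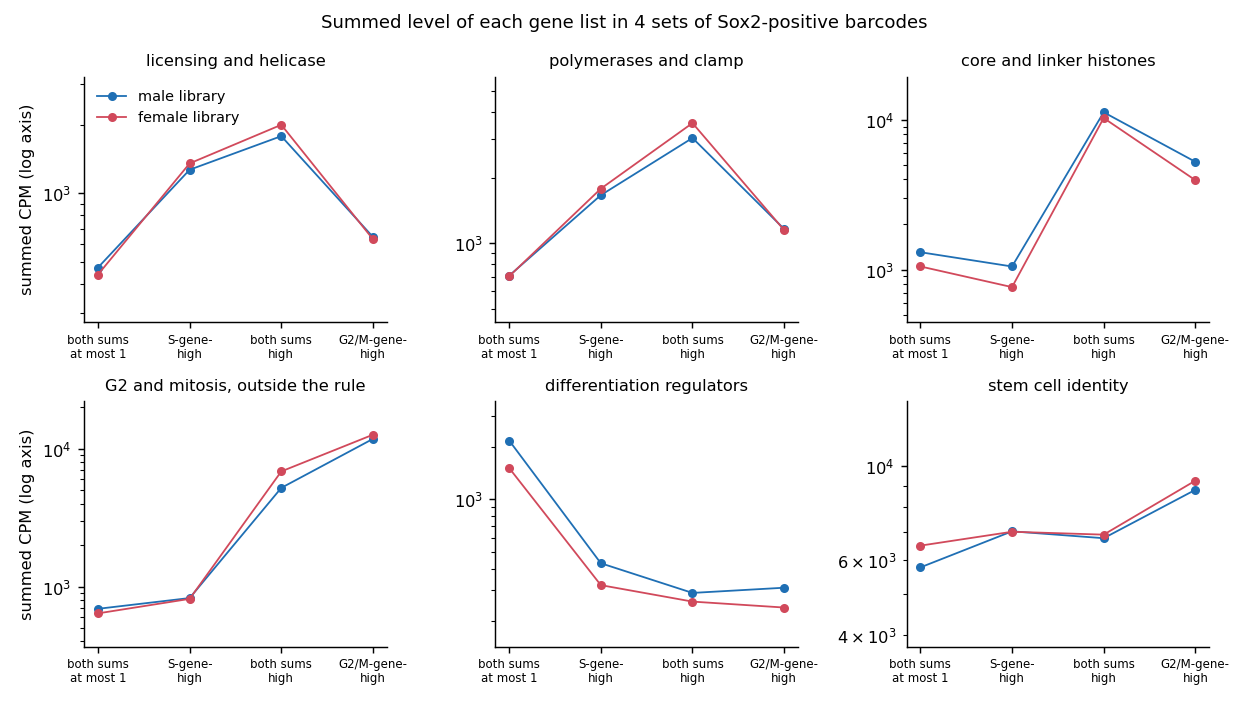
Each panel gives the summed level of a gene list in CPM (log axis) in 4 sets of *Sox2*-positive barcodes, with 1 line per library; the first set is the reference of the rule. Licensing and polymerase genes rise in S-gene-high cells already (licensing 1267 and 1351 CPM), histones stay at 1048 and 764 CPM there and exceed 10000 CPM only in both-sums-high cells, and differentiation regulators fall from 2171 and 1510 CPM to 429 and 321.5 CPM.

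Within the S-gene-high cells, those with more G2 and mitosis UMIs had more of the replication genes. Cells with 0, 1, 2 and 3 such UMIs numbered 184, 104, 62 and 35 in male and 181, 96, 48 and 29 in female barcodes. The licensing sum was 1082, 1271, 1461 and 1760 CPM over these male groups and 1123, 1440, 1641 and 1886 CPM over the female groups. *Pclaf* stood at 18.6, 52.2, 125 and 111 CPM in male and 20.6, 54.1, 113 and 236 CPM in female groups. The histone sum did not follow, with 1049, 1041, 1050 and 1066 CPM in male and 744, 807.5, 787 and 681.8 CPM in female groups. Deeper cells reach both sums more often, and the part of depth in this order was not tested.

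Differentiation regulators were mostly lower in S-gene-high cells. Of 20 genes 10 were compared, 8 were called lower (among them *Dll1*, *Smoc2*, *Insm1*, *Pou1f1*, *Scx*, *Mycl* and *Hes6*) and 0 higher. The rule's reference includes *Lef1*-positive progenitors, which the gate leaves out of the S-gene-high cells. Median ratios were 0.251 in male and 0.279 in female barcodes against it, and 0.537 and 0.403 against the depth-matched reference with the same gate. *Hes6*, an antagonist of HES1 in differentiating cells, stood at 120 and 75.4 CPM against 681 and 417 CPM, with matched ratios of 0.412 and 0.239. *Pou1f1*, the factor of the somatotroph, lactotroph and thyrotroph lineages, stood at 17.5 and 11.2 CPM against 87.2 and 40.3 CPM, with matched ratios of 0.199 and 0.283. The list summed to 429 and 321.5 CPM in S-gene-high cells, and in G2/M-gene-high cells it was also low, at 311 and 239 CPM.

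The lowest ratios were those of *Tubb3* and *Dll3*. *Tubb3*, a neuronal tubulin, stood at 6.05 CPM in male and 1.12 CPM in female S-gene-high cells against 64.6 and 19.8 CPM in the reference, and *Dll3*, a Notch ligand of committed cells, at 4.37 and 1.56 CPM against 27.0 and 21.3 CPM. Others among the lowest were *Stmn3*, *Nol4*, *Stmn2*, *Rundc3a*, *Htr3a*, *Gdap1*, *Prox1*, *Pou1f1*, *Srrm4*, *Enho*, *Sh3bgr* and *Gng2*. Of 13 hormone and secretory genes 7 were compared, and *Chga* and *Scg2*, proteins of secretory granules, were called lower and 0 higher, with median ratios of 0.812 and 0.327 against the rule's reference and 0.236 and 0.109 at matched depth, where the matched reference held 79131 and 19902 CPM of these genes. Against the matched reference alone all 7 were lower. Barcodes rich in *Pomc*, *Gh* or *Prl* made up 5.33% of the male and 2.72% of the female reference, more than in the S-gene-high cells. With all hormone-rich and mesenchymal-rich barcodes left out, all 8 differentiation regulators were still called lower, whereas *Tubb3*, *Dll3*, *Nol4*, *Stmn2*, *Rundc3a*, *Gdap1*, *Prox1*, *Srrm4* and *Sh3bgr* were no longer called. Their ratios in this setting are not given, and a call also ends when a gene falls under the level needed to compare. The Notch list, which holds *Dll3*, had 14 compared genes in this setting and 15 in the main comparison. A lost call here is therefore not a lost difference.

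The number of SC identity genes that passed the call depended on the reference. Of 24 on the list 19 were compared, and *Ednrb* and *Cdh26* were called higher and 0 lower. Over all features 4.54% were called higher and 1.44% lower. Against the rule's reference alone 6 were higher (6.95% of all features), and 4 were called at an S-phase sum of at least 8 (5.67%). The list had median ratios of 1.35 in male and 1.18 in female barcodes against the rule's reference and 1.39 and 1.10 at matched depth. *Sox2* itself, required by the rule, stood at 601 and 747 CPM against 442 and 620 CPM, and *Sox9* at 109 and 129 CPM against 61.2 and 83.7 CPM, with matched ratios of 1.54 and 1.23. *Ednrb*, the endothelin receptor that marks SCs of the cleft, stood at 92.9 CPM (95% 85.3 to 101) in male and 176 CPM (164 to 189) in female S-gene-high cells, against 39.5 and 108 CPM, with matched ratios of 2.54 and 1.71. *Aldh1a2*, a retinoic acid synthesis gene that marks the other main SC group, stood at 722 and 570 CPM against 381 and 370 CPM, and its matched ratios of 1.47 and 1.36 were under the threshold. Neither call was stable. The smallest ratio of *Ednrb* was 1.02 and that of *Cdh26* 1.41 with barcodes thinned before the rule was applied, 1.35 and 1.45 with another draw of the matched reference, and 1.38 and 1.47 without hormone-rich and mesenchymal-rich barcodes. Per-cell means and a ratio of 2 also left both genes uncalled.

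S-gene-high cells occurred in both SC groups. After thinning to 5000 UMIs, an *Ednrb* UMI was found in 31.8% (95% 27.1 to 36.8) of male and 49.0% (43.7 to 54.4) of female S-gene-high cells, against 20.9% and 36.9% of gated reference barcodes and 0.216% and 1.83% of mesenchymal-rich barcodes. *Aldh1a2* was found in 86.3% and 83.8% of them, against 72.4% and 69.0% of the gated reference and 5.62% and 2.93% of mesenchymal-rich barcodes. Other cycling SCs at this depth had *Ednrb* in 24.6% and 47.2% (G2/M-gene-high) and in 21.9% and 44.0% (both-sums-high) of barcodes. They had *Aldh1a2* in 84.1% and 80.2% and in 88.6% and 82.3%, so neither share was particular to S-gene-high cells. Unthinned, *Ednrb* was found in 51.7% and 70.1% of S-gene-high cells, at median depths of 12281 and 11016 UMIs, and in 29.3% and 46.0% of the gated reference, at 8836.5 and 8422.5 UMIs. The barcodes kept for thinning had medians of 12781 and 11027 UMIs in S-gene-high cells, 9348 and 8523 UMIs in the gated reference and 8516 and 8031 UMIs in mesenchymal-rich barcodes. Seen from the SC groups, 10.8% of male and 10.2% of female gate barcodes with *Aldh1a2* alone were S-gene-high, 13.4% and 10.7% of those with *Ednrb* alone, 15.7% and 11.8% of those with both, and 5.05% and 2.77% of those with neither. With the rule also applied at 5000 UMIs, the shares were 7.95% and 5.87% with *Aldh1a2* alone, 8.45% and 7.77% with *Ednrb* alone, 10.5% and 6.82% with both, and 2.68% (95% 1.57 to 4.26) and 2.28% (1.25 to 3.80) with neither. At that depth the intervals of the 3 groups with a marker overlapped in each library, and all lay above that of the group with neither.

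**Figure D5:**
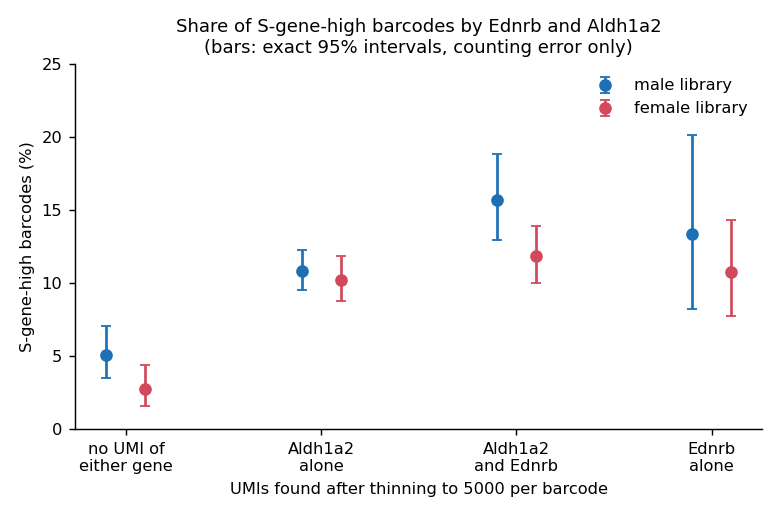
The y axis gives the percentage of gate barcodes that were S-gene-high and the x axis the SC markers found after thinning each barcode to 5000 UMIs, with exact 95% intervals as bars. Barcodes with no UMI of either gene have the lowest share in both libraries (5.05% male and 2.77% female), under the groups with a marker (10.2% to 15.7%). The rule was applied at full depth here.

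*Lef1*-positive progenitors, which the gate leaves out, rarely met the rule when barcodes were thinned to 5000 UMIs. Among barcodes with *Sox2*, *Lef1* and under 1000 CPM of *Cga*, as deposited, 91 of 1331 male (6.84%, 95% 5.54 to 8.33) and 42 of 971 female (4.33%, 3.13 to 5.80) passed both sums, and these were deep, with medians of 18848 and 18797 UMIs. At 5000 UMIs per barcode, 3 of 585 male (0.513%, 0.106 to 1.49) and 2 of 528 female barcodes (0.379%, 0.0459 to 1.36) did, against 7.59% (6.74 to 8.52) and 5.82% (5.08 to 6.62) of the barcodes in the gate. Thinning set *Lef1* positivity anew, so barcodes that lost their *Lef1* UMIs could count in the gate. The limit of 5 UMIs was kept, while the passing *Lef1*-positive barcodes had median S-phase sums of 7 and 6 UMIs as deposited. The thinned shares therefore do not compare the same cells. Of the deep *Lef1*-positive cells 20.9% and 19.0% were among the barcodes with the highest Scrublet doublet scores, against 3.9% and 5.65% of S-gene-high cells.

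Signalling genes gave smaller counts, beside 4.54% of all 8111 features called higher and 1.44% lower in the main comparison. Of 15 compared Notch pathway genes (18 on the list), *Nrarp*, *Heyl*, *Notch2* and *Notch3* were called higher and *Dll3* lower. *Nrarp*, a Notch target, stood at 48.7 and 48.0 CPM in S-gene-high cells against 16.7 and 17.8 CPM, 2.91- and 2.70-fold higher, and *Hes1*, the Notch effector that keeps progenitors undifferentiated, at 894 and 1733 CPM against 418 and 1043 CPM with matched ratios of 1.76 and 1.499. *Hes1* was not called because the last of these was under 1.5. Of the YAP and TAZ pathway 2 of 9 compared genes (14 on the list) were called higher: *Cyr61*, a matricellular YAP target, stood at 490 and 726 CPM against 194 and 368 CPM, and *Ctgf*, another, at 22.3 and 42.4 CPM against 7.90 and 20.2 CPM. With barcodes thinned before the rule, or at a ratio of 2, 0 of these 9 were called. The 4 Notch genes called higher became 2 of 14 with per-cell means or without hormone-rich and mesenchymal-rich barcodes. They became 1 of 15 at a ratio of 2, 1 of 5 at a mean of 50 CPM and 8 of 15 against the rule's reference alone (6.95% of all features). Of 11 compared growth factor response genes (19 on the list) *Igfbp3* and *Igfbp2*, binding proteins of insulin-like growth factors, were called higher, *Igfbp3* at 66.2 and 125 CPM against 17.6 and 29.3 CPM (3.77- and 4.26-fold). *Igfbp2* was near the limit, with a smallest ratio of 1.51. On this list 1 gene was called higher with median-of-ratios scaling, per-cell means, doublet removal, 2000 genes per barcode or thinning. It was also 1 without hormone-rich and mesenchymal-rich barcodes, and 4 against the rule's reference alone. *Wnt9a*, a WNT ligand, was called higher among 13 compared WNT genes (20 on the list). The call was lost with the highest doublet scores removed, at a G2 and mitosis sum of at most 1, without hormone-rich and mesenchymal-rich barcodes, with another draw of the matched reference, at a mean of 50 CPM and at a ratio of 2. In the main comparison 0 of 4 Hedgehog, 0 of 19 ribosome biogenesis and 0 of 18 immediate early genes were called in either direction. These counts of 0, and 1 of 13 for WNT, are near the shares over all features. They are no result about these lists.

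S-gene-high cells of the 2 libraries differed in few of the features compared. Of 3187 features compared between male and female S-gene-high cells, 47 were at least 1.5-fold higher in male (1.47%) and 48 in female cells (1.51%). No gene of the licensing (10 compared), polymerase (17), nucleotide supply (9), chromatin (16) or repair (4) lists was among them. With 1.47% and 1.51% of all features called and so few genes compared, this is near the share over all features. It is therefore no result about these lists. The median male to female ratio was 0.943 for licensing and 0.912 for polymerase genes. The largest ratios to the male side were those of *Gal*, *Col3a1*, *Chgb*, *Dcn* and *Gh*, and 5 barcodes held 99.8% of male *Gal* and 96.9% of male *Gh* UMIs in S-gene-high cells. All 7 compared hormone and secretory genes were higher in the male library, among them *Pomc*, the precursor of ACTH and MSH, at 16388 against 2170 CPM. *Pomc* fell to 149 and 43.0 CPM with the hormone-rich and mesenchymal-rich barcodes left out. The depth-matched references, with those barcodes kept, held 65842 CPM of *Pomc* in male and 17346 CPM in female barcodes. There *Gal* was 8.20-fold, *Col3a1* 3.33-fold, *Chgb* 2.65-fold, *Dcn* 5.49-fold and *Gh* 7.55-fold higher in male barcodes as well. To the female side the largest ratios were those of *AC160336.1*, *Ccnd2*, *Csnk2a1*, *Rnaset2b* and *AY036118*. *Ccnd2*, a D-type cyclin, stood at 164 CPM (95% 154 to 175) in male and 360 CPM (343 to 378) in female S-gene-high cells, and at 125 and 229 CPM in their depth-matched references. *Ednrb* and *Hes1* were also higher in the female cells, as they were in the female reference, and *Igfbp3* was higher in female S-gene-high cells (125 against 66.2 CPM) with 29.3 against 17.6 CPM in the rule's reference and 27.6 against 26.7 CPM in the depth-matched references.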

How the data were processed

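The authors sequenced 10x 3′ libraries and made the deposited count files with Cell Ranger 3.0.2 (STAR 2.5.1b, mm10 with eGFP): UMI counts per gene and called barcode, not normalized. Barcodes were kept at 1000 genes and at most 10% mitochondrial UMIs, and doublets were only scored (Scrublet in scanpy 1.11.5, 0.8% marked per 1000 barcodes), not removed. UMIs were summed per library and group and scaled to CPM, with Poisson, Clopper-Pearson and conditional binomial 95% intervals (Python 3.11.15, scipy 1.17.1); intervals cover counting error only. The ratio step was tested on simulated data. Depth matching used log2 bins of 0.25. Named genes were the rule's genes, the 15 most extreme called features in each direction, and called or central members of each list; male and female cells were compared by the 5 largest ratios each way. The cells, lists and rule were chosen with earlier results of these data known. Alternatives covered the reference, fold, filters, normalization, doublets, thresholds and thinning. The study's clusters were not used here. Some genes on the lists are not reported here.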

Additional observations from a re-analysis of the deposited data

Results flagged for a closer look

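*Col3a1* and *Dcn*, fibroblast matrix genes, had ratios of S-gene-high cells to the rule's reference on opposite sides of 1 in the libraries: 1.45 in male and 0.258 in female barcodes for *Col3a1*, and 1.55 and 0.384 for *Dcn*. At matched depth the ratios were 1.21 and 0.292 for *Col3a1* and 1.28 and 0.588 for *Dcn*. The difference between the libraries was not tested, since each sex has 1 library. In S-gene-high cells 5 barcodes held 84.9% of male and 60.0% of female *Col3a1* UMIs. Without hormone-rich and mesenchymal-rich barcodes, *Dcn* stood at 2.60 CPM in male S-gene-high cells (ratio 0.532, 95% 0.284 to 0.922) and at 0.682 CPM in female ones (ratio 0.530, 0.104 to 1.68), and the *Col3a1* ratios were 0.791 and 1.51.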

How the results depend on the processing

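The counts of 368 higher and 117 lower features depended most on the call and the filter. They were 564 and 213 against the rule's reference alone, 464 and 187 against the matched reference alone, 120 and 47 at a ratio of 2, 810 and 622 with no filter on low values, 98 and 19 at a mean of 50 CPM, and 463 and 179 with barcodes thinned before the rule, where 226 and 63 were shared with the main calls. Median-of-ratios scaling, per-cell means, doublet removal, 2000 genes per barcode and stricter sums kept both counts within 1.5 times, as did 3 alternatives chosen after seeing the data: no hormone-rich or mesenchymal-rich barcodes (273 and 95, of which 240 and 67 were shared), no shared barcodes (389 and 123) and another matched draw (349 and 113). The share of *Sox2*-positive barcodes in the male library became 5.89% under the study's own filter, 4.58% at a sum of at least 8, 10.7% at a sum of at least 3, 4.88% at a G2 and mitosis sum of at most 1 and 9.99% of the gate. In the female library it became 5.01% with thinning, 4.94%, 12% and 5.68% at those sums and 9.32% of the gate. Of 119 named features over 15 alternatives, 1705 of 1785 smallest ratios stayed within the span of the 4 counting intervals (2 references, 2 libraries). The other 80 left it and 0 were called in the other direction, and 21 features were called in every alternative. A ratio of 2, the 2 other filters on low values and each reference alone reuse the main ratios. Those alternatives could not leave the span or reverse a call, so the 1705 overstate the stability. Licensing genes called higher ranged from 6 of 7 compared at a mean of 50 CPM to 20 of 22 with thinning. Polymerase genes ranged from 3 of 6 to 28 of 28 in the same settings. Differentiation regulators called lower were 4 of 10 at a ratio of 2, 4 of 5 at a mean of 50 CPM and 12 of 17 with no filter on low values. Cell groups were compared within each library, so each ratio is paired by library, and no test was made. The sexes could be neither paired nor replicated, because each has 1 library. Depth limits low genes such as *Cdc6* and *Ccne1*, and shares by a UMI sum.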

Other observations

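The count files list a tdtomato feature, which had 0 UMIs in both libraries, beside eGFP with 1497 UMIs in 1172 male and 730 UMIs in 620 female barcodes.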
